A study of Mus musculus with 2 samples.

Results

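The smooth muscle contractile genes were followed by single-cell RNA-seq while mouse epiblast stem cells (mEpiSCs), which are primed, were returned to naive pluripotency. They were 10 genes taken by symbol from the 33963 genes of the raw count table, and all 10 were present: Acta2, Actg2 and Actc1, Tagln, Cnn1, Cald1 and Tpm2, Myl9 and Myh11, and Csrp2. The 5 populations were naive mESCs of the Rex1-GFP line in 2iL, a medium with inhibitors of MEK and GSK3 plus the cytokine LIF (naive), primed mEpiSCs of the Oct4GIP line (primed), Oct4GIP cells on day 8 (d8) and on day 16 (d16) of a treatment with AICAR plus LIF, and those d16 cells carried 10 passages further in 2iL (d16+10p). AICAR activates the energy sensor AMPK, and the treatment was given in Basal medium. Rex1-GFP cells carry a green reporter under the Rex1 promoter, and Oct4GIP cells and all their derivatives carry a green reporter and puromycin resistance under the Oct4 promoter. The labels give the strain as 129/Ola. mEpiSCs were expanded on fibronectin in FGF2 and Activin A and plated on mouse embryonic fibroblast (MEF) feeders for 1 day before the treatment, so the treated samples could hold feeder cells. The study also took the cells of its primed sample without Oct4 (gene Pou5f1) to be MEF feeders, so the primed tag may not mark epiblast stem cells alone. Each population was 1 line and 1 tagged sample in 1 pooled cDNA library. No difference below therefore has a replicate check, and intervals cover counting error only.

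Smooth muscle shortens when myosin filaments pull on thin filaments of actin, and its actomyosin is switched on by phosphorylation of the myosin regulatory light chain. Thin filaments carry tropomyosin, calponin, caldesmon and transgelin, which stabilize them or hold back myosin. Most of these genes are also switched on in myofibroblasts and in other cells under tension, and many are targets of serum response factor (SRF), which binds the CArG box. Embryonic stem cells are not known as contractile cells, whereas feeder fibroblasts and cells that differentiate in culture often carry actin stress fibres.

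In GRCm38 (GENCODE M21), the genes of the thin-filament actins were Acta2 (chr19:34241090-34255590, minus strand), Actg2 (chr6:83512905-83536265, minus strand) and Actc1 (chr2:114047282-114053548, minus strand). The genes of the actin-binding proteins were Tagln (chr9:45929619-45936058, minus strand), Cnn1 (chr9:22099216-22109630, plus strand), Cald1 (chr6:34598500-34775473, plus strand) and Tpm2 (chr4:43514711-43523765, minus strand). The myosin genes were Myl9 (chr2:156775420-156781658, plus strand) and Myh11 (chr16:14194535-14291372, minus strand), and the LIM protein gene was Csrp2 (chr10:110919789-110939622, plus strand). All are protein-coding. Exons of Tagln overlap those of 2 genes on the opposite strand, Pcsk7 over 108 bases and the antisense gene Gm48529 over 1241 bases, and whether the counting used the strand is not given in the sources used here. Tagln reads therefore cannot be told apart from those of its antisense partner. The actin genes are close relatives, but 0 of the 50-base windows in the last 500 bases of the protein-coding transcripts of any of the 10 genes were found in a transcript of another gene. Windows were searched in the sense direction only, so bases shared with antisense transcripts such as Gm48529 could not be found this way.

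RefSeq promoter sequences (GRCm38.p6) matched 6 of the 10 genes, Acta2, Actc1, Cnn1, Cald1, Tpm2 and Myl9, with 7 start sites, and Tagln, Csrp2, Myh11 and Actg2 had no entry. The 250 bases before each start were searched for the CArG box, that is CC, then 6 letters that are each A or T, then GG, a form that is the same on both strands. The exact box was found in Myl9 and Actc1, and 1.47% of all 32851 promoters hold it. Boxes with 1 C or G among the 6 inner letters were found in Acta2, Myl9 and Actc1, and 7.24% of all promoters hold 1 or more. Either form was found in 8.59% of all promoters. The windows of these 3 genes are shown because they hold the box that SRF is known to bind, or its 1-letter variant. Each is 30 bases, 5′ to 3′ on the strand of the gene (minus for Acta2 and Actc1, plus for Myl9), and capitals mark the box or its 1-letter variant.
Acta2 chr19:34255438-34255467: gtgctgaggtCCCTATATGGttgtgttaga
Acta2 chr19:34255388-34255417: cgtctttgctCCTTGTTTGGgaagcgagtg
Myl9 chr2:156775293-156775322: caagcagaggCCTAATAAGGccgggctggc
Myl9 chr2:156775355-156775384: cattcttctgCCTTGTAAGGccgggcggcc
Actc1 chr2:114052903-114052932: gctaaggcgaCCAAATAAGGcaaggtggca
Actc1 chr2:114053031-114053060: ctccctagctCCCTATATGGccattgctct
Actc1 chr2:114052994-114053023: ccctccccttCCTTACATGGtctgggagcc
Actc1 chr2:114052943-114052972: gcccttggctCCAAGAATGGcctcagcggt
The exact boxes are CCTAATAAGG in Myl9, 161 to 152 bases before the start, and CCAAATAAGG in Actc1, 47 to 38 bases before it. The variant CCCTATATGG occurs in Acta2, 84 to 75 bases before its start, and in Actc1, 175 to 166 bases before its start. Both Acta2 windows lie within an exon of a longer GENCODE transcript of the gene. The motif CATTCC, bound by TEAD factors, was found on the opposite strand (GGAATG) in Acta2 and at 1 start of Cald1, and 12.6% of all promoters hold it on either strand. Neither form of the CArG box was in the windows of Cnn1, Cald1 and Tpm2. Cnn1 and Tpm2 were highest in the same cluster of mainly d8 cells as Acta2, Myl9 and Actc1, described below. Whether SRF acts on these levels was not tested. A match describes letters and is not a site, and no match says only that these letters are not in this window.

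The table held 307121033 reads in 17720 cells, of which 9627 were d8, 4315 d16, 1826 primed, 1151 d16+10p and 801 naive cells, with a median of 10185 to 21551 reads per cell in the 5 populations. The 10 genes took 0.212% of all reads. The pluripotency gene Pou5f1 was measured at 317 CPM in naive and 341 CPM in d16+10p cells, 203 CPM in primed, 154 CPM in d16 and 56.8 CPM in d8 cells, where CPM is reads of a gene per 1000000 reads, summed over the cells of a population. CPM is not divided by gene length, so levels are compared within a gene and not between genes. A lower sum can come from fewer expressing cells or from less RNA per cell, which sums cannot tell apart.

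The primed and naive tags were each found on more cells than the 500 that were loaded, 1826 and 801 cells, and 419 of the primed cells lay in the cluster of primed pluripotent cells described below. Levels of the contractile genes were highest at d8 for 7 of the 10 genes, and at d16 for Actg2, Myh11 and Csrp2, of which only Actg2 differed between d8 and d16 cells beyond its counting interval. In d16+10p cells all 10 were within 2-fold of naive cells. Between d8 and primed cells, 3 genes were more than 2-fold higher (Acta2, Tagln and Cald1), and between d16 and d8 cells 6 genes were more than 2-fold lower (Acta2, Actc1, Tagln, Cald1, Tpm2 and Cnn1). The 3 actins are described first.

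**Figure D1:**
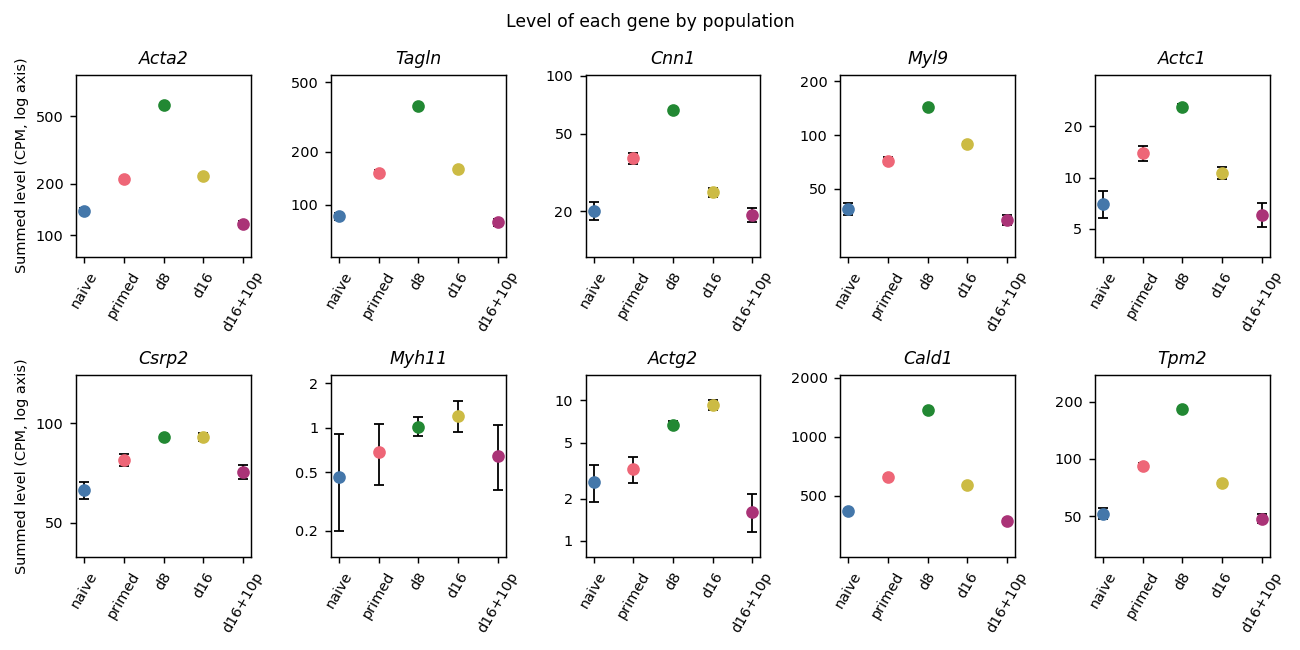
Summed level of each of the 10 genes (CPM, log axes that differ between panels) in the 5 populations, with 95% Poisson intervals of the summed reads. The d8 point stands above the other 4 populations in 7 panels, while Csrp2 is level between d8 and d16 cells and Actg2 and Myh11 are highest at d16.

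Acta2, the vascular smooth muscle actin and a hallmark of myofibroblasts, was measured at 138 CPM (132 to 143) in naive, 213 CPM (208 to 219) in primed, 583 CPM (579.7 to 587) in d8, 223 CPM (219 to 227) in d16 and 116 CPM (112 to 120.3) in d16+10p cells. It was highest at d8 and next highest in d16 and primed cells, whose intervals are close but do not overlap. The log2 ratio of d8 to primed cells was 1.45 (1.41 to 1.49) and that of d16 to d8 cells -1.38 (-1.41 to -1.35), so d16 cells were close to the primed level, and naive and d16+10p cells were lowest with separate intervals. Actc1, the cardiac actin that is also made in developing smooth muscle, was measured at 7.02 CPM (5.82 to 8.38) in naive, 14.0 CPM (12.6 to 15.4) in primed, 26.2 CPM (25.4 to 26.9) in d8, 10.6 CPM (9.80 to 11.5) in d16 and 6.06 CPM (5.16 to 7.08) in d16+10p cells. Its order was d8, primed, d16, naive and d16+10p, and the intervals of naive and d16+10p cells overlap. The log2 ratios were 0.86 (0.72 to 1.00) for d8 against primed and -1.22 (-1.34 to -1.11) for d16 against d8. Actg2, the enteric smooth muscle actin, was read 42 to 1207 times per population, at 2.61 CPM (1.90 to 3.49) in naive, 3.23 CPM (2.60 to 3.97) in primed, 6.71 CPM (6.33 to 7.10) in d8, 9.30 CPM (8.51 to 10.1) in d16 and 1.60 CPM (1.15 to 2.16) in d16+10p cells. Unlike the other actins it was highest at d16, and the log2 ratio of d16+10p to d16 cells was -1.98 (-2.28 to -1.68). Its naive and primed intervals overlap, as do those of naive and d16+10p cells.

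Tagln (transgelin, also called SM22) cross-links actin, and its level was 85.6 CPM (81.3 to 90.1) in naive, 152 CPM (148 to 157) in primed, 366 CPM (363 to 369) in d8, 159 CPM (155 to 162) in d16 and 79.1 CPM (75.8 to 82.6) in d16+10p cells. The d16 and primed intervals overlap, as do those of naive and d16+10p cells, and only d8 stood clear above the other populations. Its log2 ratio was 1.26 (1.21 to 1.30) for d8 against primed and -1.20 (-1.23 to -1.17) for d16 against d8. Cald1 (caldesmon), which blocks myosin on the thin filament and has a non-muscle isoform under the same symbol, was read in most cells, at 419 CPM (409 to 428) in naive, 625 CPM (616 to 634) in primed, 1370.3 CPM (1365 to 1376) in d8, 569 CPM (563 to 576) in d16 and 374 CPM (366 to 381) in d16+10p cells. All 5 intervals were separate, in the order d8, primed, d16, naive and d16+10p. The log2 ratios were 1.13 (1.11 to 1.15) and -1.27 (-1.28 to -1.25). Tpm2 (beta-tropomyosin) followed the same order, at 51.5 CPM (48.2 to 55.0) in naive, 91.8 CPM (88.3 to 95.5) in primed, 182 CPM (180.5 to 184) in d8, 74.5 CPM (72.2 to 76.8) in d16 and 48.4 CPM (45.8 to 51.1) in d16+10p cells. It was just under 2-fold higher in d8 than in primed cells, at 0.98 (0.92 to 1.04), and lower in d16 than in d8 cells, at -1.28 (-1.33 to -1.24).

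Cnn1 (calponin 1), a thin-filament inhibitor of myosin restricted to smooth muscle in the adult, was measured at 20.1 CPM (18.1 to 22.4) in naive, 37.4 CPM (35.1 to 39.7) in primed, 66.4 CPM (65.2 to 67.6) in d8, 25.04 CPM (23.7 to 26.4) in d16 and 19.1 CPM (17.5 to 20.8) in d16+10p cells. The d8 level was highest and the primed level next, while the naive and d16+10p intervals overlap. Its ratios were 0.81 (0.72 to 0.90) for d8 against primed and -1.37 (-1.45 to -1.29) for d16 against d8 on the log2 scale. Myl9, the regulatory light chain of smooth muscle myosin, was measured at 38.4 CPM (35.6 to 41.5) in naive, 72.0 CPM (68.9 to 75.2) in primed, 144 CPM (142 to 146) in d8, 89.5 CPM (87.1 to 92.1) in d16 and 33.5 CPM (31.3 to 35.8) in d16+10p cells. It kept more of its d8 level at d16 than Acta2 or Tagln did: the log2 ratio of d16 to d8 cells was -0.68 (-0.72 to -0.64), and the larger step came after expansion, at -1.39 (-1.49 to -1.29) for d16+10p against d16. Myh11, the smooth muscle myosin heavy chain and the most selective marker of the mature tissue, had few reads in any population, at 0.464 CPM (0.2003 to 0.914) in naive, 0.682 CPM (0.410 to 1.06) in primed, 1.02 CPM (0.875 to 1.18) in d8, 1.20 CPM (0.930 to 1.52) in d16 and 0.648 CPM (0.378 to 1.04) in d16+10p cells. These levels rest on 8, 19, 183, 67 and 17 reads, and the intervals of primed, d8, d16 and d16+10p cells overlap.

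Csrp2, a LIM protein of smooth muscle that binds alpha-actinin and helps SRF-dependent transcription, differed least between populations. Its level was 62.7 CPM (59.0 to 66.5) in naive, 77.4 CPM (74.1 to 80.7) in primed, 90.9 CPM (89.6 to 92.3) in d8, 91.1 CPM (88.6 to 93.6) in d16 and 71.2 CPM (68.0 to 74.5) in d16+10p cells. The log2 ratio was 0.23 (0.17 to 0.30) for d8 against primed and 0.00 (-0.04 to 0.05) for d16 against d8, and the latter interval spans 0.

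Which cells stand for the primed population mattered for these ratios. Against the 419 primed cells of the pluripotent cluster 12 alone, the log2 ratio of all d8 cells was 2.27 for Acta2, 2.41 for Tagln, 2.16 for Cald1 and 2.00 for Myl9, and 7 of the 10 genes were past 2-fold higher, with a median of 1.83 beside 0.13 over all genes. The share of all genes past 2-fold was not computed for this comparison, so the count of 7 has no such share beside it.

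Read together over all tagged cells, the 10 genes had a median log2 ratio of 0.92 in d8 against primed cells, beside -0.02 over the 10403 genes with at least 10 CPM in either population. All 10 ratios were above 0, and for 9 of them the counting interval was too. Of all genes at that level, 3.53% were more than 2-fold higher and 3.28% lower, against 3 and 0 of the 10 contractile genes. The pseudocount of 1 CPM added before taking ratios pulls rare genes such as Myh11 toward 0. In d16 against d8 cells the median was -1.21 beside 0.03 over all genes, and 6 of the 10 genes were more than 2-fold lower, compared with 3.68% of all genes. None was more than 2-fold higher, beside 8.52% of all genes. The 4 others were Myl9, Csrp2, Myh11 and Actg2. The 2 contrasts share the d8 sample, so they are not independent.

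In d16+10p against d16 cells all 10 ratios were below 0, with a median of -0.67 beside -0.07. Myl9 and Actg2 were more than 2-fold lower, beside 11.0% of all genes, and none was more than 2-fold higher, beside 2.55%. Actg2 did not reach 10 CPM in either population. Tagln and Acta2 (-0.94) were just within the 2-fold limit. In d16+10p against naive cells the ratios ran from -0.47 for Actg2 to 0.18 for Csrp2 with a median of -0.14, and 0 genes were past 2-fold in either direction, beside 0.862% of all genes higher and 0.614% lower. In primed against naive cells they ran from 0.20 for Myh11 and 0.23 for Actg2 to 0.90 for Actc1, with a median of 0.72. None passed 2-fold there, beside 3.55% of all genes higher and 4.69% lower. In each of these comparisons Myh11 and Actg2 were below the 10 CPM that the other genes were held to, as was Actc1 in d16+10p against naive cells.

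The level in a sum does not say how many cells held the transcripts, so each cell was thinned at random to 5000 reads, and cells with fewer reads were not counted. This kept 8872 d8, 3711 d16, 1555 primed, 1082 d16+10p and 733 naive cells. The share of thinned cells with an Acta2 read was 50.6% among d8 cells, against 39.7% among naive, 41.7% among primed, 46.2% among d16 and 37.0% among d16+10p cells. The Tagln share was 47.1% among d8 cells, against 29.3% among naive, 35.8% among primed, 37.5% among d16 and 29.4% among d16+10p cells. Over the 10 genes, the median of the d8 share minus the primed share was 7.46 percentage points. A read in a cell is not expression by that cell: in the macrophage-like cells described below, Acta2 was found in 42.8% of thinned cells, and Lyz2, a macrophage lysozyme, was found in 53.5% of thinned naive cells. The macrophage-like cells had a median of 17378 reads before thinning, and their shares are given below for comparison. What part of any share is RNA from other cells was not tested. For Acta2, the interval of the macrophage-like share, 39.4% to 46.3%, lay below that of d8 cells (49.6% to 51.7%) and overlapped that of d16 cells (44.6% to 47.8%). The Cnn1 share was 18.2% among d8 cells, against 8.05% among naive, 11.7% among primed, 8.52% among d16 and 8.60% among d16+10p cells, with 9.63% in macrophage-like cells. The Tpm2 share was 39.9% among d8 cells, against 20.5% among naive, 28.2% among primed, 22.6% among d16 and 19.4% among d16+10p cells, with 22.7% in macrophage-like cells. The Myl9 share was 28.6% among d8 cells, against 15.3% among naive, 20.2% among primed, 23.2% among d16 and 13.2% among d16+10p cells, with 17.8% in macrophage-like cells. All 3 were highest at d8, and d8 exceeded the macrophage-like share for each. The Csrp2 share was 24.3% among d8 cells, against 19.6% among naive, 25.5% among primed, 29.6% among d16 and 27.2% among d16+10p cells, so d8 was not highest, and macrophage-like cells had 12.03%. The Actc1 share was 5.60% among d8 cells, against 4.09% among naive, 4.18% among primed, 2.99% among d16 and 2.22% among d16+10p cells, with 1.93% in macrophage-like cells. The Cald1 share was 92.9% among d8 cells, against 78.3% among naive, 83.0% among primed, 81.3% among d16 and 78.5% among d16+10p cells, with 74.7% in macrophage-like cells. Unthinned, the Acta2 share was 77.4% of naive and 75.6% of d8 cells, an order that goes against the summed levels, with a median of 19551 reads per naive and 15474 per d8 cell.

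Counting the genes per cell separated d8 more clearly. At least 5 of the 10 genes were detected in 4.23% (2.89 to 5.95) of thinned naive, 8.04% (6.74 to 9.50) of primed, 19.2% (18.4 to 20.02) of d8, 8.06% (7.20 to 8.98) of d16 and 3.05% (2.11 to 4.26) of d16+10p cells. The median d8 cell had 3 of the 10 genes and the median cell of each other population 2, and the most found in 1 cell was 9, in 10 d8 cells, 1 primed and 1 d16 cell.

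**Figure D2:**
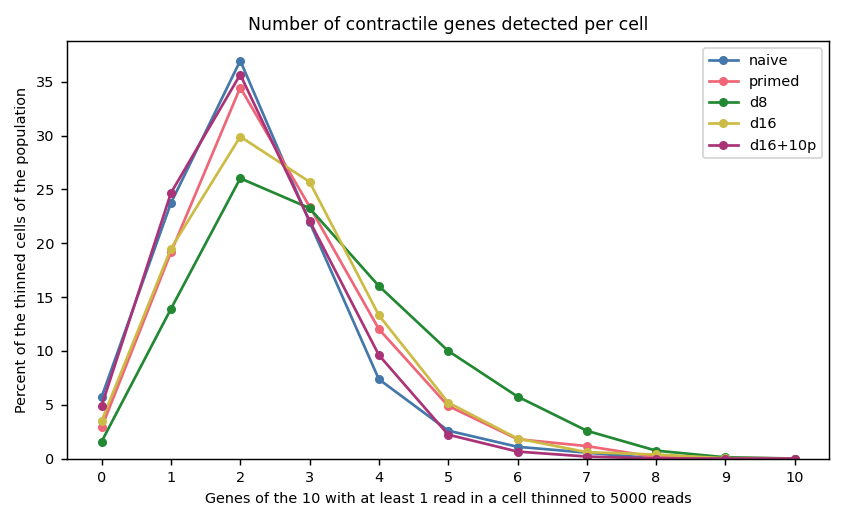
Percent of thinned cells (5000 reads each) with a given number of the 10 contractile genes detected, by population. The curves peak at 2 genes in all populations, and the d8 curve lies above the others from 4 to 9 genes.

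To find the cells with many of the genes, all 17720 cells were clustered on other genes, with the 10 contractile genes left out. This gave 18 clusters, numbered 0 to 17 from largest to smallest. Cluster levels are descriptions with no test, and the clusters singled out here were chosen after their levels were seen. Cluster 4, the cluster with most Actc1, held 1627 cells, of which 1500 were d8 cells. Its leading other genes were Ly6c1, Aif1l, Itga7 and Eya4. It had the highest level of 7 of the 10 genes: Acta2 1450.4 CPM, Tagln 776 CPM, Cnn1 146 CPM, Myl9 314 CPM, Actc1 91.9 CPM, Csrp2 260.5 CPM and Tpm2 274 CPM. Acta2 was 13.8 times and Actc1 16.6 times the level of the lowest cluster. Actc1, the gene by which the cluster was picked, was the most confined: the second highest cluster reached 18.8 CPM. After thinning, Actc1 was read in 14.7% of the cells of cluster 4, Csrp2 in 54.5%, Cnn1 in 32.9%, Tagln in 67.6% and Acta2 in 71.6%. At least 5 of the 10 genes were found in 48.8% of its thinned cells, and in 24.6% of those of cluster 1.

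**Figure D3:**
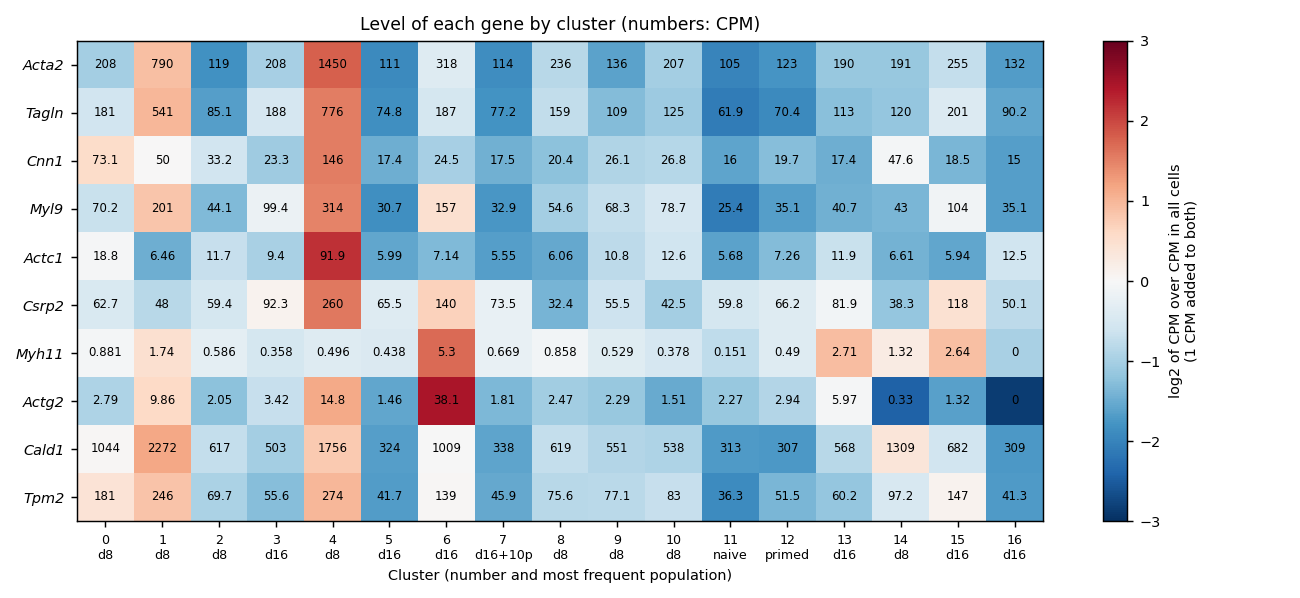
Level of the 10 genes in the 17 clusters with at least 50 cells, with the CPM printed in each field and the colour giving the log2 ratio to the level over all cells. Cluster 4 is highest for 7 genes, cluster 1 for Cald1, and cluster 6 for Actg2 and Myh11.

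Cluster 4 was not led by other smooth muscle markers. Myh11 was at 0.496 CPM there, so the defining heavy chain was nearly missing. Of 9 further smooth muscle markers outside the group, Lmod1, a thin-filament nucleator, was at 18.3 CPM, the highest level of any cluster. Mylk, the myosin light chain kinase, was at 10.5 CPM, Synpo2 at 3.08 CPM, Des (desmin) at 3.06 CPM and Pln (phospholamban) at 0.0275 CPM. The 9 markers summed to 103 CPM in cluster 4, against 98.6 CPM in the epithelial-like cluster 0, 75.7 CPM in cluster 1 and 329 CPM in cluster 6. Epithelial keratin Krt18 was at 1430.3 CPM in cluster 4, 3167 CPM in cluster 0 and 183 CPM in cluster 1. Epithelial markers summed to 2940 CPM in cluster 4, 2739 CPM over all d8 cells and 6717 CPM in cluster 0. Fibroblast markers summed to 1263 CPM in cluster 4, 1988 CPM over all d8 cells and 5157 CPM in cluster 1. On a wider list, 7 of 19 other smooth muscle genes were past 2-fold higher in cluster 4 than in other d8 cells (1.48% of all genes). On the same list 2 were past 2-fold lower (4.98% of all genes). Since these markers point different ways, the cluster is called by its number.

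Against the other d8 cells, the d8 cells of cluster 4 were higher in 9 of the 10 genes, with 7 past 2-fold, beside 1.48% of all genes higher and 4.98% lower. Cluster 4 was picked by its Actc1 level, so Actc1, which is among the 7, was bound to be high there. Actc1 had a log2 ratio of 2.91 (2.83 to 3.0), Csrp2 of 2.29 (2.24 to 2.33) and Acta2 of 1.96 (1.95 to 1.98). Cnn1, Myl9, Actg2 and Tagln followed at 1.61, 1.57, 1.56 and 1.54. Tpm2 and Cald1, which non-muscle cells also use widely, differed less, at 0.79 and 0.47, and Myh11 was lower at -0.47. Csrp2, which hardly differed between whole populations, was thus among the genes that differed most between clusters at d8.

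Cluster 1 was the second site of these transcripts. It was fibroblast-like, with leading genes Lox, Ccl2, Olr1 and Tfpi2, and held 2343 cells, 2169 of them d8. Its Cald1 level of 2272 CPM was the highest of any cluster, and Acta2 (790.2 CPM), Tagln (541 CPM), Myl9 (201 CPM) and Tpm2 (246 CPM) were second to cluster 4. Actc1 (6.46 CPM) and Csrp2 (48.0 CPM) were below their levels over all d8 cells. Against the other d8 cells, the log2 ratio was 1.13 (1.12 to 1.14) for Cald1, the only one of the 10 past 2-fold higher (all genes: 7.54%), and -2.19 (-2.34 to -2.04) for Actc1 and -1.12 (-1.18 to -1.05) for Csrp2, which were past 2-fold lower (all genes: 10.2%). The Y-linked gene Ddx3y was at 96.7 CPM in cluster 1, 37.8 CPM in the macrophage-like cluster 8 and 71.6 CPM in the naive cluster 11. In cluster 4 it was at 5.59 CPM and in the primed cluster 12 at 3.92 CPM. The study lists both the Oct4GIP and the Rex1-GFP line as XX, and the reason for the Ddx3y reads in the naive cluster was not tested. Whether the cells of cluster 1 came from the feeders was not tested.

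Clusters 4 and 1 made up 15.6% and 22.5% of the d8 cells, and 18.6% and 25.1% of all d8 reads. Cluster 4 held 47.1% of the d8 reads of Acta2, 39.9% of those of Tagln, 41.4% of Cnn1, 40.6% of Myl9, 64.9% of Actc1, 53.1% of Csrp2 and 43.4% of Actg2. Cluster 1 held 42.3% of those of Cald1, 37.3% of Tagln, 34.8% of Myl9, 34.4% of Acta2 and 33.9% of Tpm2. The epithelial-like cluster 0 (22.0% of d8 cells and 23.4% of all d8 reads, led by Sfn, Slc5a5 and keratins) held 25.6% of the Cnn1 and 23.2% of the Tpm2 reads, close to its share of all reads. In the 5958 d8 cells outside clusters 4 and 1, Acta2 was at 191 CPM, Tagln at 148 CPM, Myl9 at 63.1 CPM and Actc1 at 13.4 CPM. The 1699 primed cells outside the same clusters had 146 CPM of Acta2, 102 CPM of Tagln, 50.5 CPM of Myl9 and 11.2 CPM of Actc1, so d8 was the higher side for all 4 genes. Cald1 was at 820.1 CPM in d8 and 525 CPM in primed cells there, Tpm2 at 122 and 77.5 CPM and Cnn1 at 47.1 and 30.5 CPM, while Csrp2 was lower at d8, at 54.4 against 69.1 CPM. The d8 macrophage-like cells of cluster 8, which are among the 5958, had more Acta2 (239 CPM) and Tagln (163 CPM) than the 5958 together. Those macrophage-like cells had less Myl9 (54.3 CPM) and Actc1 (6.28 CPM). What part of these levels is RNA from other cells was not tested. Without clusters 4 and 1 in every population, the median log2 ratio of the 10 genes was 0.37 for d8 against primed with 0 genes past 2-fold, and -0.053 for d16 against d8 with only Cnn1 (-1.10) past 2-fold lower. Shares of all genes past 2-fold were not computed without these clusters.

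**Figure D4:**
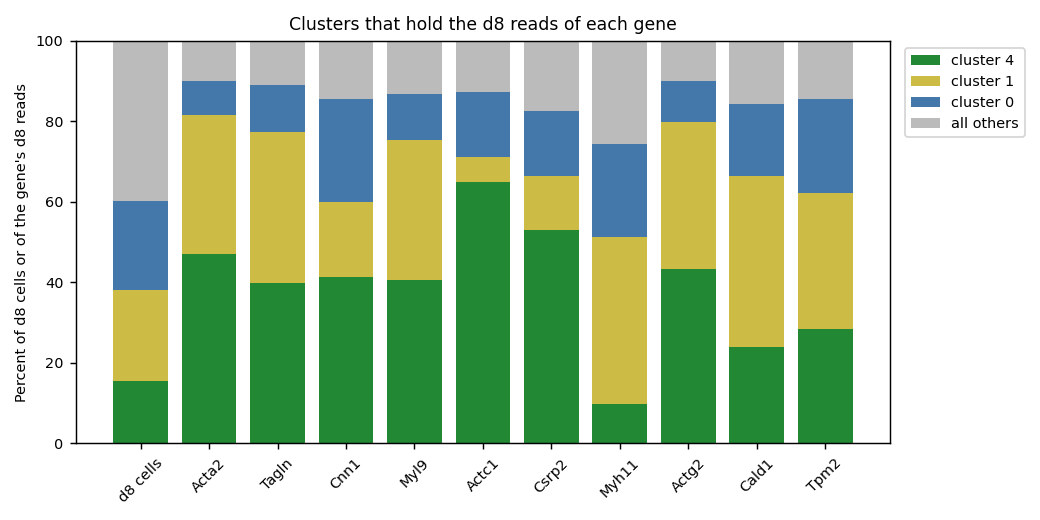
Percent of the d8 cells (first bar) and of the d8 reads of each gene (other bars) that lay in clusters 4, 1, 0 and all others. Cluster 4 holds 15.6% of the cells, 18.6% of all d8 reads and 64.9% of the Actc1 reads, and cluster 1 holds more of Cald1, Tpm2 and Myh11 than cluster 4 does.

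Few cells of cluster 4 carried a tag other than d8: 56 of the 1826 primed, 45 of the 4315 d16, 19 of the 801 naive and 7 of the 1151 d16+10p cells. The 56 primed cells had 1060.5 CPM of Acta2 and 80.6 CPM of Actc1, against 1479.9 and 91.5 CPM in the 1500 d8 cells of the cluster. Cells with high levels thus also carried the primed tag, in a smaller share than at d8. Other clusters made up mainly of d8 cells held cells with the primed and naive tags too. The macrophage-like cluster 8 held 47 primed and 23 naive cells, and the epithelial-like cluster 0 held 172 and 27. Whether such cells were tagged correctly was not tested. Without cluster 4 in any population, the median log2 ratio of the 10 genes was 0.64 for d8 against primed and -0.69 for d16 against d8, and 3 instead of 6 genes were more than 2-fold lower at d16. Actc1 then differed by 0.04 and Csrp2 by -0.38 between d8 and primed cells, while Acta2 still differed by 1.11. The share of all genes past 2-fold without cluster 4 was not computed.

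At d16 a different cluster stood out. Cluster 6 was fibroblast-like (Col3a1, Cygb, Apod and Ogn, with Col3a1 at 5258 CPM) and held 729 of the 4315 d16 cells. It had the highest levels of Actg2 (38.1 CPM) and Myh11 (5.30 CPM) of all clusters, and with 16.9% of the d16 cells it held 73.2% of the d16 reads of Actg2 and 71.6% of those of Myh11. Mylk (75.0 CPM), Synpo2 (16.8 CPM) and the integrin Itga8 (185 CPM) were also highest there, and the 9 further smooth muscle markers summed to 329 CPM. Acta2 (318 CPM) and Tagln (187 CPM) were lower than in clusters 4 and 1. Against the other d16 cells, the log2 ratio was 3.85 (3.62 to 4.08) for Actg2, 1.33 (1.24 to 1.42) for Myl9, 1.27 (1.17 to 1.37) for Tpm2 and 1.09 (1.05 to 1.13) for Cald1, all past 2-fold (all genes: 6.44% higher and 8.83% lower). Myh11 had 2.50 (2.1 to 2.83) on 48 reads in the cluster and 19 outside it, below the level filter of 10 CPM. The Actg2 level differed within the cluster, since the 237 primed cells of cluster 6 had 2.96 CPM and its d16 cells 54.4 CPM.

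The clusters of pluripotent cells were compared next. The 4 clusters with most Pou5f1 were each made up mainly of 1 population: cluster 11 (516 naive cells), cluster 12 (419 primed), cluster 5 (1190 d16) and cluster 7 (892 d16+10p). Across these 4 clusters, Acta2 spanned 105 to 123 CPM, Tagln 61.9 to 77.2 CPM, Cald1 307 to 338 CPM, Cnn1 16.0 to 19.7 CPM and Actc1 5.55 to 7.26 CPM. Csrp2 spanned 59.8 to 73.5 CPM, Myl9 25.4 to 35.1 CPM and Tpm2 36.3 to 51.5 CPM, so the highest of the 4 clusters was at most 1.42 times the lowest for these 8 genes. Actg2 spanned 1.46 to 2.94 CPM and Myh11 0.151 to 0.669 CPM. Cells that carry the same tags outside these clusters had more: Acta2 was at 237 CPM in the other naive, 265 CPM in the other primed, 280.3 CPM in the other d16 and 207 CPM in the other d16+10p cells. Of the primed cells, 1407 of 1826 lay outside cluster 12, and how many of them were feeder cells or wrongly tagged cells was not tested. Genes of other cell types were also read in the 4 clusters, Lyz2 at 194 to 201 CPM, Krt18 at 167 to 248 CPM, Lox at 54.8 to 61.3 CPM and Col3a1 at 94.4 to 140 CPM. Their ratios to the level over all cells were 0.108 to 0.112 for Lyz2, 0.189 to 0.28 for Krt18, 0.2 to 0.224 for Lox and 0.316 to 0.468 for Col3a1. For Acta2 that ratio was 0.25 to 0.294, and for Csrp2 0.692 to 0.85. The part of free RNA in the levels of these clusters was not tested.

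Using only the cells of these 4 clusters, the median log2 ratio of the 10 genes was 0.0079 for d16+10p against d16, 0.11 for d16+10p against naive and 0.24 for primed against naive cells, and 0 genes were past 2-fold lower in d16+10p against d16 cells. The share of all genes past 2-fold was not computed for these cells.

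Single d8 cells tended to hold several of the genes at once. For each of the 45 pairs, the number of thinned d8 cells with reads of both genes was divided by the number given by the product of the 2 shares. The ratio was above 1 for 44 pairs, and for all 36 pairs with a product of at least 20 cells, with a median of 1.32 in these and a range of 1.02 to 2.08. The highest were Cnn1 with Actc1 (2.08, 188 cells), Cnn1 with Actg2 (1.90, 52 cells) and Myl9 with Actg2 (1.79, 77 cells). Acta2 with Tagln gave 1.20 (2545 cells), and all pairs with Cald1 lay at or below 1.08, since Cald1 was read in 92.9% of cells. The pair of Actc1 and Myh11, below 1, rests on 1 cell. As a reference, pairs of a contractile gene with Lyz2 had a median of 0.964, with Krt18 of 1.02, and with skeletal actin (Acta1) of 1.37. With Lox the median was 1.07, with Tpm1 1.02 and with Actb 1.00. The more cells a gene is read in, the lower the highest ratio it can give, so references that differ in detection are not fully comparable. Inside cluster 4 the median was 1.17 and outside it 1.21, below the value over all d8 cells and above 1 on either side.

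**Figure D5:**
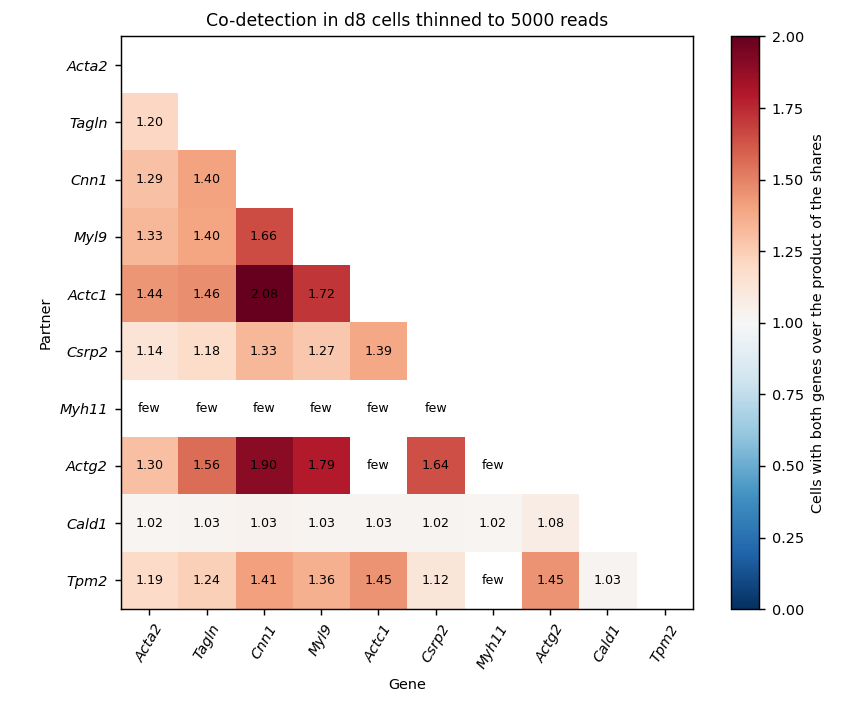
Cells with both genes over the product of the single shares, for each pair of the 10 genes in 8872 d8 cells thinned to 5000 reads. All fields with a value are above 1, fields with a product under 20 cells are marked few, and the darkest field is Cnn1 with Actc1 at 2.08.

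Over the same 8872 cells, which share 1 library and are not replicates, Pearson's r of log2(1 + reads) was 0.59 for Acta2 and Tagln, 0.52 for Acta2 and Myl9 and 0.50 for Tagln and Myl9. Within the 1448 thinned d8 cells of cluster 4 these were 0.64, 0.52 and 0.56. The gene most like each of the 10 by r was another of the 10 in 7 cases. For Cald1 it was Sparc, a matrix protein (0.45), and for Csrp2 Tpm1, an alpha-tropomyosin (0.24). For Myh11 it was Gm48529, the antisense gene at Tagln (0.07, with a read of Myh11 in 36 cells). The r of Gm48529 with Tagln was 0.39. Of the genes outside the group, those most like the mean of the 10 were Sparc (0.47), Actg1, Tpm1, Cnn2, Actn1, Myl6, Dstn, Myl12a, Prss23 and Anxa1 (0.40), and the median r over 9326 genes was -0.01. Actg1 encodes an actin, Tpm1 a tropomyosin, Cnn2 a calponin, Actn1 an actinin, Myl6 and Myl12a myosin light chains and Dstn an actin-severing protein.

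Other genes of the pathway were read from lists, and those given only as past 2-fold were named after their values were seen. Of 25 other smooth muscle genes, 16 reached 10 CPM in d8 or primed cells, and 4 of these were more than 2-fold higher at d8 (Nexn, Itga5, Crip1 and Cryab, beside 3.53% of all genes), with a median log2 ratio of 0.64 beside -0.02 over all genes. In d16 against d8 cells 5 of 16 were past 2-fold lower (Nexn, Tpm1, Itga5, Cryab and Mcam), beside 3.68% of all genes. Tpm1, whose protein pairs with beta-tropomyosin, was at 972 CPM in primed, 1838 CPM in d8 and 729 CPM in d16 cells, and the chaperone gene Cryab at 104 CPM in primed, 325 CPM in d8 and 96.8 CPM in d16 cells. Both were highest in cluster 4 among the clusters compared, Tpm1 at 3733 CPM and Cryab at 566 CPM. Cnn2, the calponin of non-muscle cells, was at 129 CPM in primed, 199.7 CPM in d8 and 134 CPM in d16 cells. Hspb1, a small heat-shock protein, was at 170.3 CPM in primed, 303 CPM in d8 and 322 CPM in d16 cells. Between cluster 4 and the other d8 cells, 7 of 19 were past 2-fold higher (Lmod1, Tgfb1i1, Fhl1, Cnn2, Tpm1, Cryab and Mcam), beside 1.48% of all genes, and 2 lower (Pgm5 and Crip1), beside 4.98%.

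Non-muscle actomyosin genes differed less. None of 16 was past 2-fold in d8 against primed cells (median 0.47, with 3.53% of all genes higher), and 4 of 16 were past 2-fold lower in d16 against d8 cells (Myh9, Actn1, Vcl and Zyx), beside 3.68% of all genes. Actb was at 3816 CPM in primed, 4093 CPM in d8 and 3845 CPM in d16 cells, and Actg1 at 2660.0 CPM in primed, 2819.6 CPM in d8 and 2552 CPM in d16 cells, so the cytoplasmic actins were nearly level between these populations while Acta2 and Actc1 were not. Between clusters they differed more: Actb was at 6551 CPM in cluster 1, 3903 CPM in cluster 4 and 2782 CPM in cluster 0. Actg1 was at 3418, 3559 and 2584 CPM in the same order. Myl12a was at 889.8 CPM in primed, 1339 CPM in d8 and 722 CPM in d16 cells, and Myl6 at 958 CPM in primed, 1315 CPM in d8 and 1036 CPM in d16 cells. Of 14 measured genes of the response to TGF-beta or YAP, 5 were past 2-fold higher at d8 (3.53% of all genes) and 5 past 2-fold lower at d16 against d8 (3.68% of all genes), with Thbs1, a matrix glycoprotein, in both counts. By cluster, Thbs1 was at 2187 CPM in cluster 1 and at 477 CPM in cluster 4. Tgfb2 had the other order, at 73.8 CPM in cluster 1 and 269.7 CPM in cluster 4, and Ccn1 was at 335 and 148 CPM.

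Srf was at 16.6 CPM in primed and 16.7 CPM in d8 cells, and its muscle partner Myocd at 0.789 and 1.00 CPM. Of 12 regulators in the table, 7 reached 10 CPM in d8 or primed cells, and 1, the homeobox gene Prrx1, was past 2-fold higher at d8 (3.53% of all genes), at 58.8 CPM in primed, 202 CPM in d8 and 59.9 CPM in d16 cells. It was at 650.3 CPM in cluster 1 and 38.2 CPM in cluster 4. Klf4, which represses smooth muscle genes and also belongs to the naive pluripotency network, was at 201 CPM in primed, 244 CPM in d8 and 447 CPM in d16 and 209 CPM in d16+10p cells, Notch3 at 36.4 CPM in primed, 31.5 CPM in d8 and 36.0 CPM in d16 and 15.2 CPM in d16+10p cells and Mrtfb at 17.0 CPM in primed, 19.8 CPM in d8 and 16.9 CPM in d16 cells. Of 16 cardiac genes other than Actc1, 1 reached 10 CPM in d8 or primed cells, the troponin gene Tnnt2, at 4.77 CPM in primed, 10.1 CPM in d8 and 4.89 CPM in d16 cells, and Tnnc1, Ryr2 and Hand2 stayed at or under 4.09 CPM in d8 cells. Of 11 skeletal muscle genes, 2 reached 10 CPM in d8 or primed cells, and 1, Acta1, was past 2-fold higher at d8 (3.53% of all genes). In d16 against d8 cells 3 reached that level. Acta1 was past 2-fold lower there (3.68% of all genes), while Mylpf and Tnnt3 were past 2-fold higher (8.52% of all genes). Acta1 was at 40.4 CPM in primed, 101 CPM in d8 and 30.7 CPM in d16 cells. Mylpf was at 16.0 CPM in primed, 12.5 CPM in d8 and 107 CPM in d16 cells, Tnni1 at 3.80 CPM in primed, 5.06 CPM in d8 and 3.67 CPM in d16 cells and Tnnt3 at 3.09 CPM in primed, 3.85 CPM in d8 and 11.6 CPM in d16 cells.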

How the data were processed

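Single-cell RNA-seq of the 5 tagged populations was analysed from 1 pooled cDNA library. The authors trimmed the reads with cutadapt 2.10, mapped them with Bowtie2 2.3.4.1 to Ensembl cDNA and ncRNA of GRCm38.p6, removed cells with ambiguous tags as doublets, and deposited raw counts of reads per gene symbol and cell. The counts are reads, since collapsing by molecular identifier is not described, and intervals cover counting error only. All 17720 deposited cells were used. Between 2000 and 8000 detected genes were found in 15628 of them, the number of cells the study analysed.

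Each cell's population came from the tag in its column name and the tag list of the series. Counts were summed per population or cluster and divided by the total (CPM), with exact Poisson intervals at the 95% level. Ratios of sums had 1 CPM added to both sides, and their intervals came from the exact binomial interval. Shares of genes past 2-fold were taken over genes that reached 10 CPM in 1 or both groups compared. Cells were thinned to 5000 reads for shares and correlations, with exact binomial intervals. With 1 sample per population no test was made. Clusters were made with Seurat 5.3.0 (R 4.3.3) on 2000 variable genes, 56 principal components, 50 neighbours and resolution 0.8, without the 10 contractile genes, and named from marker lists. No further doublet caller was run. On counts simulated as independent Poisson draws, 95.6% of the intervals for d8 against primed held the true value, over 9873 genes. That simulation checks the calculation only and cannot show that the intervals fit the deposited reads. Reads of 1 cell or 1 molecule need not be independent, so the intervals may be too narrow: Actg2 had 1207 reads in 422 d8 cells. Python 3.11.15, numpy 2.4.6, pandas 2.3.3, scipy 1.17.1, matplotlib 3.10.9 and, for scaling factors only, edgeR 4.0.16 were used.

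The 10 genes and all gene lists were chosen with earlier results of these data known. Of each list, its counts past 2-fold and the up to 4 genes with the highest d8 CPM were named, with the 10 genes most correlated with the mean of the 10 genes (read in at least 5% of thinned d8 cells) and the gene most correlated with each. Of the genes this rule names, 1 is not reported here. Alternatives were the level filter, the pseudocount, scaling by TMM, the mean of CPM per cell, thinning depth, a minimum of 2 reads, the limits on genes per cell, clustering settings, and 4 chosen after seeing the data: without cluster 4, without clusters 4 and 1, against primed cluster 12 alone, and the pluripotent clusters alone.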

Additional observations from a re-analysis of the deposited data

How the results depend on the processing

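The median log2 ratio of the 10 genes between d8 and primed cells (0.92) was 0.80 with a pseudocount of 10 CPM, with the mean of CPM per cell and with thinned cells, 0.64 without cluster 4, 0.37 without clusters 4 and 1 and 1.83 against the primed cells of cluster 12 alone. In the last 2 settings 0 and 7 genes instead of 3 were past 2-fold, and 5 genes instead of 3 were past 2-fold with TMM scaling. Between d16 and d8 cells (-1.21) it was -1.27 for genes with at least 50 CPM, -0.97 with the larger pseudocount, -1.31 with TMM and -0.69 without cluster 4, where 3 genes instead of 6 were past 2-fold, and -0.053 with 1 gene past it without clusters 4 and 1. Between d16+10p and d16 cells (-0.67) it was -0.52 without clusters 4 and 1 and with TMM, which moved the median of all genes from -0.07 to 0.08, -0.46 with the mean per cell and 0.0079 in the pluripotent clusters alone. There the count past 2-fold was 0 instead of 2, Actg2 turned to 0.051, and with the larger pseudocount the count was 1. In the same clusters the median was 0.11 for d16+10p against naive (-0.14 over all cells) and 0.24 for primed against naive (0.72 over all cells, 0.41 without clusters 4 and 1, 0.58 with the larger pseudocount). The d8 minus primed share of cells (7.46 points) was 5.70 at 3000 reads, 5.95 at 10000 reads and 4.62 with at least 2 reads. The share of d8 cells with at least 5 genes (19.2%) was 12.2%, 38.6% and 7.16% in that order, and the co-detection ratio (1.32) was 1.48, 1.14 and 1.97. With clusters at resolution 0.4, the cluster of most Actc1 had 3881 cells and held 99.6% of cluster 4, its median log2 ratio to the other d8 cells was 0.60 instead of 1.57, and 3 genes instead of 7 were past 2-fold. The cause of these shifts was not tested, except that a larger pseudocount draws ratios toward 0 and thinning depth sets how often a read is seen. Under the alternatives, shares of all genes past 2-fold were not computed, so the counts above stand without them. Of 440 values of single genes under the alternatives, 93 were past 2-fold in the reported setting; 1 of these reversed and 16 were no longer past 2-fold. No paired analysis was possible because the 5 populations have 1 sample each and share no replicate numbers. With 1 sample per population, the spread between cultures is unknown, and Myh11 (8 to 183 reads per population) is too thinly read to order.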
